A study of Mus musculus with 6 samples.

Results

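The IFIT and IFITM genes are 2 families of antiviral genes that interferons switch on, and 7 of them are described here in primary peritubular myoid cells of the mouse testis: Ifit1, Ifit2, Ifit3 and Ifit3b of the IFIT family, and Ifitm1, Ifitm2 and Ifitm3 of the IFITM family. They are 7 of the 19285 genes with values in the deposited table. The set was chosen on measured values, namely the lower Ifit1 and Ifit3 levels in the libraries treated with endothelin-1 (ET-1), so the comparison of treated with untreated libraries is given for the members as a description. Counts of members called in the fit over all genes are printed beside the share called among all genes, and nothing is read from them. All cells were primary cultures from C57BL/6J mice, grown in DMEM/F12 with 10% fetal bovine serum. The untreated group had 3 libraries, and the other group had 3 libraries of cells given 50 nM ET-1, a peptide that contracts smooth muscle through its receptors, for 5 min in DMEM/F12. The labels do not say whether libraries came from separate cultures or animals, so errors measure the spread between libraries, which may be technical. The groups may differ in medium as well as in ET-1, and the effects of these cannot be told apart. Values after ET-1 are those of the ET-1 libraries, and lower or higher describes a difference between libraries.

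Interferons bind receptors at the cell surface, and the kinases on those receptors activate transcription factors, among them STAT2, which joins IRF9 in a complex that binds the interferon-stimulated response element (ISRE) in the promoters of target genes. IFIT proteins are built of tetratricopeptide repeats and act in the cytoplasm on foreign RNA. IFITM proteins are small membrane proteins that hinder the fusion of enveloped viruses with the cell. In the mouse, Ifitm1 and Ifitm3 are also known from primordial germ cells, where they were named as fragilis genes.

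Levels are in FPKM, which divides the fragments of a gene by its transcript length and by library size, so that genes can be compared per length. Judged by the spacing of low values, each library held 17610000 to 18320000 fragments, with 82.9% to 88.3% of low values within 0.15 of a whole fragment. The markers of peritubular myoid cells were present, with Acta2, the smooth muscle actin, between 1474 and 2211 FPKM. The Leydig cell gene Insl3 reached 614 to 4532 FPKM, and Cyp11a1 of the same marker list 87.9 to 384.5 FPKM. Cyp17a1 and Lhcgr, also Leydig markers, were at most 0.09 and 0.44 FPKM in any library. RNA of other cells may thus have been present, which was not tested. In bulk RNA, fewer cells of a type and less RNA per cell cannot be told apart. Untreated libraries 1 and 3 were the most alike of all pairs, with a correlation of 0.996 across 11664 genes.

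The 4 IFIT members lie within 99316 bases of chromosome 19, in the order Ifit2 (34550694 to 34576534), Ifit3 (34583529 to 34588982), Ifit3b (34607957 to 34613401) and Ifit1 (34640889 to 34650009), all on the plus strand of mm10, with gene IDs 15958, 15959, 667370 and 15957. The 3 IFITM members span 55906 bases of chromosome 7, with Ifitm2 (140954839 to 140955961, minus strand), Ifitm1 (140967429 to 140969827, plus strand) and Ifitm3 (141009590 to 141010744, minus strand), with gene IDs 80876, 68713 and 66141. The transcripts of Ifit1, Ifit3, Ifit3b, Ifitm2 and Ifitm3 used here from GENCODE have 2 exons each, and those of Ifit2 and Ifitm1 have 3. Ifit3 and Ifit3b have coding sequences of 1209 bases each that differ at 11 bases (99.1% identity). Every other pair of IFIT members had 62.6% to 69.2% identity over aligned coding bases, and the pairs of IFITM members 80.9% to 82.1%.

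The promoters of 6 members are printed because matches to the ISRE differ between them. Each is the RefSeq window on GRCm38.p6, from 250 bases before to 50 bases after the start site, read 5′ to 3′ on the gene's strand. Capitals mark matches to the ISRE, searched on both strands as GAAA followed by any 2 bases and a second GAAA; on the opposite strand the match reads as TTTC, any 2 bases and TTTC.
Ifit1, chr19:34640639-34640938, plus strand: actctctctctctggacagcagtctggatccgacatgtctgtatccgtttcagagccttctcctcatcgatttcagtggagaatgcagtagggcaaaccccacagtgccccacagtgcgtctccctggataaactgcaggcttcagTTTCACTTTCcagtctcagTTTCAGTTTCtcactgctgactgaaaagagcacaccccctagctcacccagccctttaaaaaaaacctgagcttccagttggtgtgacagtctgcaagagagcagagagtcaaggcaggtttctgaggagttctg
Ifit3, chr19:34583279-34583578, plus strand: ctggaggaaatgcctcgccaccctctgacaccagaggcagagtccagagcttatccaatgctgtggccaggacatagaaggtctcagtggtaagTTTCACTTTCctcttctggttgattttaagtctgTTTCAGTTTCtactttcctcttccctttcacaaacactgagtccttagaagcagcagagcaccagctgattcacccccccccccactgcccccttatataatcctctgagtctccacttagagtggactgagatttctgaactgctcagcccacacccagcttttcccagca
Ifit3b, chr19:34607707-34608006, plus strand: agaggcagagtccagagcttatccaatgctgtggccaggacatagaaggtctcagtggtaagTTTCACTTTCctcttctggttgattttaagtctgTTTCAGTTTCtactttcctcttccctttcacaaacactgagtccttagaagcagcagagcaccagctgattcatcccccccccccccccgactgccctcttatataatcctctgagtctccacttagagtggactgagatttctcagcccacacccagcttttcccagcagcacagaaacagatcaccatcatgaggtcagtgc
Ifit2, chr19:34550444-34550743, plus strand: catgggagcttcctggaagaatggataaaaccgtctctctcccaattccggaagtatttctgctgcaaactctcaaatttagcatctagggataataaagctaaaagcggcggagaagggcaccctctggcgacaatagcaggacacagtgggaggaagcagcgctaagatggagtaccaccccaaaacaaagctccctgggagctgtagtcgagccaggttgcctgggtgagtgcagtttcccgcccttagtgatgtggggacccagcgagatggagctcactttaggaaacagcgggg
Ifitm3, chr7:141010695-141010994, minus strand: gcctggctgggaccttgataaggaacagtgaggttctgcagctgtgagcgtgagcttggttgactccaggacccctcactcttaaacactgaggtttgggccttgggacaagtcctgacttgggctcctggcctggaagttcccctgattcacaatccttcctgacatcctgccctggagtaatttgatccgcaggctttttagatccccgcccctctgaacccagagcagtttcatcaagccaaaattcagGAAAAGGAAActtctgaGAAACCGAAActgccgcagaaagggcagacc
Ifitm2, chr7:140955912-140956211, minus strand: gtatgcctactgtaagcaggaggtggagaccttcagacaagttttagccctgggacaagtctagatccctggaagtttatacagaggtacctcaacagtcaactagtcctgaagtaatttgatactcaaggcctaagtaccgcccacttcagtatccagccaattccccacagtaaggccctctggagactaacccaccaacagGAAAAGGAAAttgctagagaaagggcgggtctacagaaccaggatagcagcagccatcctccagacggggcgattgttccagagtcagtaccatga

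Ifit1, Ifit3 and Ifit3b each held 2 ISRE matches, and in all 3 windows they had the same letters in the same order, TTTCACTTTC and then TTTCAGTTTC. The matches ended 95 and 76 bases upstream of the start site in Ifit1, 147 and 113 in Ifit3, and 179 and 145 in Ifit3b. The Ifit3 and Ifit3b windows matched over 260 aligned bases with 99.2% identity. Ifitm3 also held 2 matches, GAAAAGGAAA and GAAACCGAAA, which began 2 and 19 bases downstream of its start site. Ifitm2 had a single match, GAAAAGGAAA, 37 bases upstream. Neither of the Ifit2 windows and not the Ifitm1 window, which belongs to another start site than the deposited gene start, held these letters. Both Ifit2 windows lie at the upstream end of a gene that spans 25841 bases. The rest of Ifit2 was not searched, so an ISRE at a start site further downstream would be missed. Among all 32851 promoter windows 3.44% held an ISRE match and 0.225% held 2 or more. The gamma-activated site, searched as TTC and GAA with any 3 bases between them, was present in the Ifit2 and Ifitm3 windows and in 8.3% of all windows. In Ifitm3 it overlapped the second ISRE match. A match of letters is a description and not evidence of binding.

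**Figure D1:**
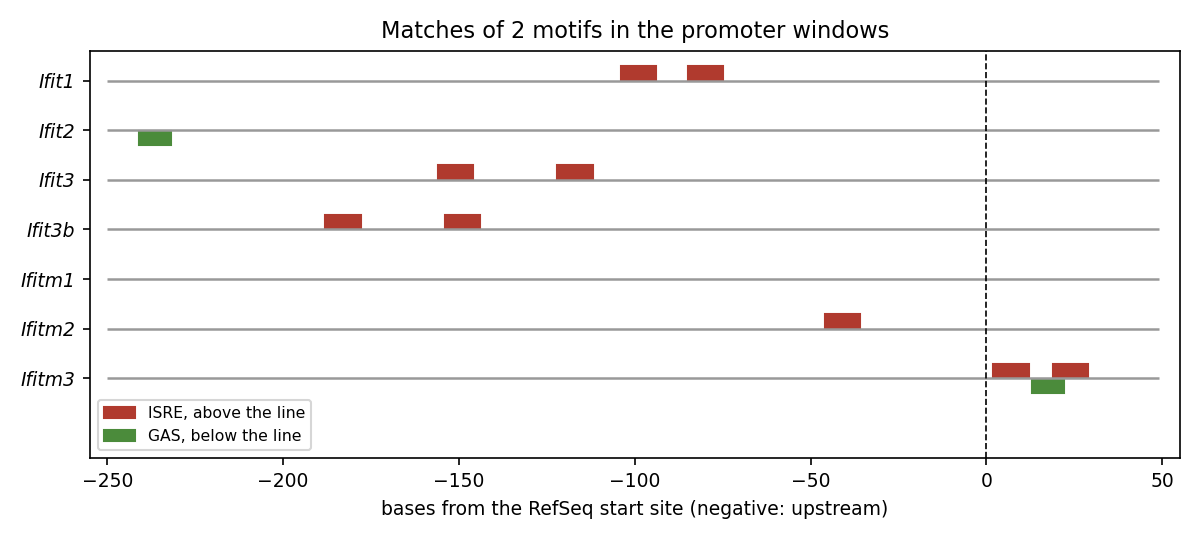
Positions of ISRE matches (red, above each line) and gamma-activated site matches (green, below) in the RefSeq promoter window of each member; the horizontal axis is the distance in bases from the start site, and the dashed line is the start site. For Ifit2 the window at the deposited gene start is drawn. Within these windows, Ifit1, Ifit3 and Ifit3b have 2 ISRE matches upstream of the start site, Ifitm3 has 2 downstream, and Ifitm2 has 1. The windows drawn for Ifit2 and Ifitm1 have none.

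Ifit1, which binds foreign RNA that lacks the cap methylation of host messages, read 40.9, 133 and 58.2 FPKM in untreated libraries 1 to 3, compared with 3.99, 4.11 and 6.40 FPKM in ET-1 libraries 1 to 3. All values by library below follow this order. All untreated values lay far above all ET-1 values. By group means the level went from 77.4 ± 48.98 to 4.83 ± 1.36 FPKM (mean ± SD, n = 3 each), a 16.0-fold lower mean. On log2(FPKM + 1) the difference was -3.59 ± 0.41 (SE).

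Ifit3, whose human counterpart stabilises IFIT1, read 43.1, 264 and 91.9 FPKM untreated, compared with 8.74, 6.61 and 5.45 FPKM after ET-1. Its group mean was 19.2-fold lower after ET-1, with a log2 difference of -3.72 ± 0.59 (SE). Ifit3b, the near-identical copy, was at 11.9, 70.9 and 21.4 FPKM untreated and at 1.68, 2.29 and 1.83 FPKM after ET-1. Its mean was 17.97-fold lower, with a log2 difference of -3.23 ± 0.57 (SE). The groups did not overlap in either gene. Of the windows of 50 bases along the Ifit3 transcript, 51.2% occur unchanged in Ifit3b, so reads could be divided between the copies and the level of each is uncertain. The sum of both copies does not depend on that division, and it was 54.95, 335 and 113 FPKM untreated and 10.4, 8.90 and 7.28 FPKM after ET-1.

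Ifit2, which protects mouse neurons from some RNA viruses, differed least among the IFIT members. It read 5.71, 14.7 and 8 FPKM untreated, compared with 4.45, 5.48 and 3.75 FPKM after ET-1. The lowest untreated value lay just above the highest ET-1 value. The mean was 2.07-fold lower after ET-1, with a log2 difference of -0.83 ± 0.31 (SE). No window of 50 bases of its transcript occurs in another gene, so reads shared with copies do not bear on this value.

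Ifitm3, which blocks the entry of enveloped viruses at endosomes, was the most abundant member in every library. It read 1479, 1726 and 1533 FPKM untreated, compared with 1322, 445 and 583 FPKM after ET-1. The untreated values were close together, whereas ET-1 library 1 lay just below them and libraries 2 and 3 far below. The mean was 2.02-fold lower after ET-1, and the log2 difference was -1.17 ± 0.38 (SE). By mean FPKM, Ifitm3 ranked 28 among the 19285 genes in untreated cells and 117 after ET-1.

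Ifitm2, an IFITM protein of late endosomes, was at 311, 216 and 309.9 FPKM untreated and at 412, 234 and 239 FPKM after ET-1. The groups overlapped, and the log2 difference was 0.05 ± 0.26 (SE). Ifitm2 is uncertain in level, since 48.5% of the windows of 50 bases of its transcript occur in other genes of the GENCODE annotation, mostly in the predicted gene Gm45717 (36.1%). Ifitm1, known to act at the cell surface, was at 0.75, 1.1 and 0.76 FPKM untreated and at 1.90, 0.77 and 0.87 FPKM after ET-1. These values rest on about 10 to 24 fragments per library, and the groups overlapped. Only 2 libraries had an Ifitm1 level of at least 1 FPKM, so it did not pass the filter on low values and the other 6 members did.

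**Figure D2:**
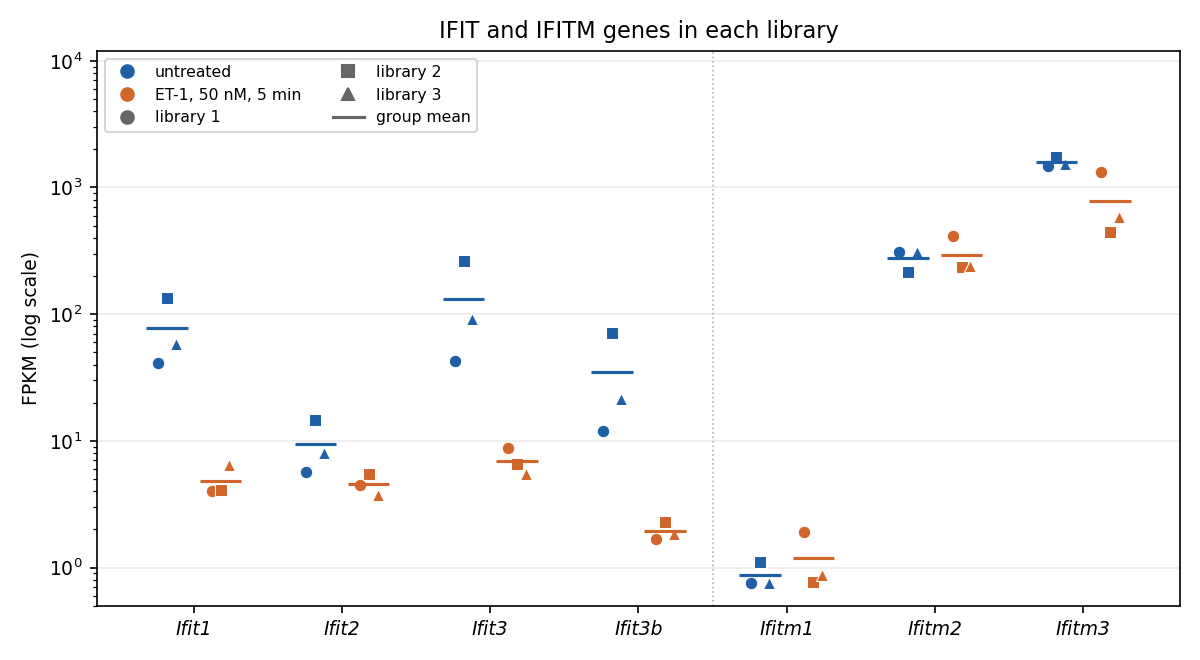
FPKM on a log scale of each IFIT and IFITM gene in each library; blue is untreated, orange is ET-1, the symbol gives the library number and the bar is the group mean of 3 libraries. Untreated and ET-1 values are apart for the 4 IFIT genes and Ifitm3 and overlap for Ifitm1 and Ifitm2, and untreated library 2 (square) is the highest for every IFIT gene.

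In untreated cells the order of mean levels was Ifitm3, Ifitm2, Ifit3, Ifit1, Ifit3b, Ifit2 and Ifitm1. Ifitm3 lay above all other members and Ifitm1 below all other members in every untreated library. The ranges of the neighbours in between overlapped across the untreated libraries. Within every untreated library, however, Ifit3 was above Ifit1, Ifit1 above Ifit3b and Ifit3b above Ifit2. Ifitm2 lay above Ifit3 except in the untreated library with the highest IFIT levels, where Ifitm2 was at 216 FPKM and Ifit3 at 264 FPKM. After ET-1 the order was Ifitm3, Ifitm2, Ifit3, Ifit1, Ifit2, Ifit3b and Ifitm1, and the ranges overlapped for Ifit3 with Ifit1, Ifit1 with Ifit2, and Ifit3b with Ifitm1. The ranges of Ifitm3 and Ifitm2, of Ifitm2 and Ifit3, and of Ifit2 and Ifit3b did not overlap.

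Fitted across 11664 genes with limma, 221 genes were lower after ET-1 at a Benjamini-Hochberg adjusted p under 0.05, which is 1.89% of those tested. Ifit1, Ifit3 and Ifit3b, 3 of the 6 tested members, were among them, and Ifit2, Ifitm2 and Ifitm3 were not. The members were chosen on this comparison, so nothing is read from that count. Every untreated library lay above every ET-1 library in 5 of the 6 tested members, against 17.6% of all tested genes. With the replicate number as a block, the same 3 members were called, against a background of 5.19%. The calls depended on which library was left out. The same 3 members were called without untreated library 1 or 2. Without untreated library 3, 0 members were called (5 of 6 at an unadjusted p under 0.05), and 0 of all 11664 genes. Only Ifitm3 was called without ET-1 library 1, and only Ifit1 without ET-1 library 2 or 3. With untreated libraries 1 and 3 averaged, 0 were called (5 at an unadjusted p under 0.05), and with no filter on low values only Ifit1.

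The proportions within the families differed between the groups as well. Ifit2 made up 5.62%, 3.04% and 4.46% of the summed IFIT FPKM in untreated libraries 1 to 3. After ET-1 it made up 23.6%, 29.6% and 21.5%, so all ET-1 shares lay above all untreated ones. Ifit1 was 7.17 to 9.07 times the level of Ifit2 in untreated libraries and 0.75 to 1.71 times in ET-1 libraries. The ratio of Ifit3 to Ifit3b was 3.62, 3.72 and 4.30 in untreated and 5.20, 2.89 and 2.98 in ET-1 libraries, with overlap. Ifitm3 was 4.75 to 7.98 times the level of Ifitm2 in untreated libraries and 1.90 to 3.21 times after ET-1. The summed IFIT level was 102 to 482 FPKM untreated and 17.4 to 18.9 FPKM after ET-1, so that the ET-1 libraries differed little from one another. The summed IFITM level was 1791 to 1944 FPKM untreated and 1736, 680 and 823 FPKM in ET-1 libraries 1 to 3. These shares come from the comparison on which the members were chosen and are a description.

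**Figure D3:**
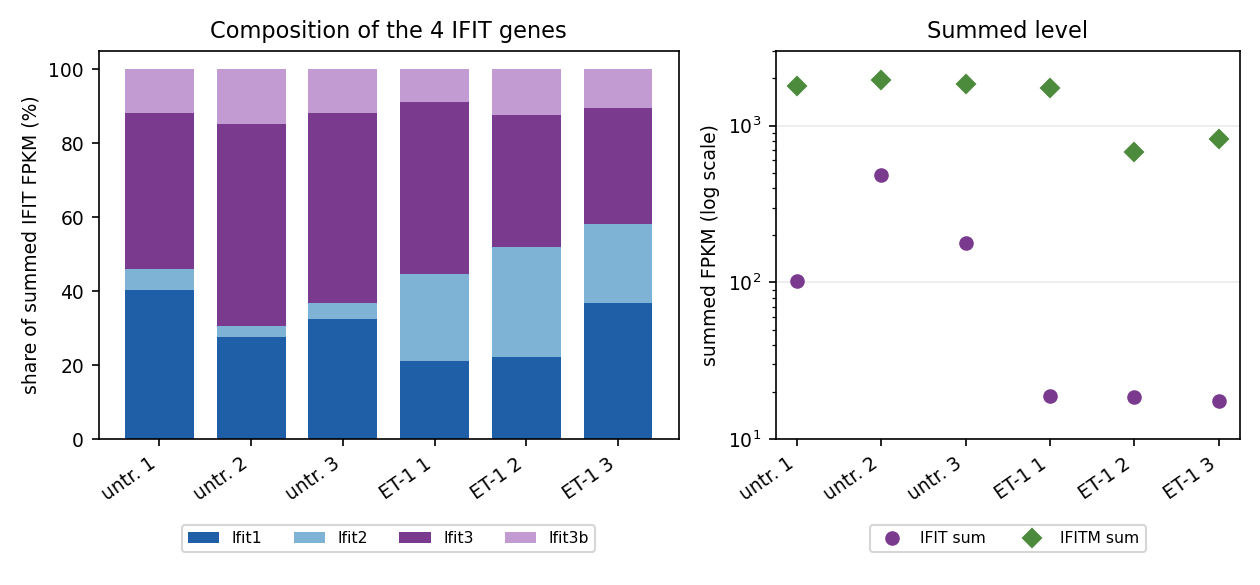
Left, the share of each gene in the summed FPKM of the 4 IFIT genes, in percent, for each library; right, the summed FPKM of the 4 IFIT genes (purple circles) and the 3 IFITM genes (green diamonds) on a log scale. The Ifit2 share is 3.04% to 5.62% in untreated and 21.5% to 29.6% in ET-1 libraries, and the IFIT sums of the ET-1 libraries lie between 17.4 and 18.9 FPKM.

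The spread among the untreated libraries was wide for the IFIT genes and close to that of a typical gene for Ifitm3. High untreated values also enlarge the difference on which the members were chosen, so these ranges are a description. Between the lowest and the highest untreated library Ifit3 differed 6.13-fold, Ifit3b 5.96-fold, Ifit1 3.25-fold and Ifit2 2.57-fold. On log2(FPKM + 1) the untreated range of Ifit3 was 2.59, against a median of 0.23 over the tested genes, and only 1 tested gene had a wider one. For Ifit3b 5 tested genes had a wider untreated range, for Ifit1 79 and for Ifit2 300. The ranges of Ifitm3 (0.22), Ifitm1 (0.26) and Ifitm2 (0.52) were exceeded by 6076, 5170 and 1977 tested genes. All 4 IFIT members had the same order in the untreated libraries, with library 2 highest, then library 3, then library 1. Library 2 was the highest untreated library in 44.8% of all tested genes. Ifitm3 had this order too, while Ifitm2 was lowest in library 2. Ifitm1 was highest in library 2, at about 14 fragments. Its values in libraries 3 and 1 (0.76 and 0.75 FPKM, about 10 fragments each) differed by less than 1 fragment.

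Among the ET-1 libraries Ifitm3 had the widest range of the 7 members. It had a range of 1.57 on the log2(FPKM + 1) scale, against a median of 0.36, and 183 tested genes had a wider one. The IFIT members had ranges from 0.30 to 0.59, and between 2639 and 7084 tested genes had wider ones. ET-1 library 1 was highest for all 3 IFITM members. It was the highest ET-1 library in 28.1% of all tested genes and in 18 of the 29 tested interferon-induced effectors described below. The 4 IFIT members had no common order after ET-1, with Ifit3 highest in library 1, Ifit2 and Ifit3b in library 2 and Ifit1 in library 3.

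The genes that flank the clusters gave small differences. The 5 tested genes on each side of the Ifit cluster had log2 differences between -0.46 (Stambpl1) and 0.52 (Lipa, the lysosomal acid lipase), and none passed the limma test over all genes. The other neighbours were Acta2, Fas, Ch25h, Pank1, Kif20b, Rpp30, Ankrd1 and Pcgf5, of which Ch25h, the cholesterol hydroxylase induced by interferon, had a log2 difference of 0.12. Beside the Ifitm cluster the 10 neighbours Bet1l, Ric8a, Sirt3, Psmd13, Athl1, Ptdss2, Rnh1, Hras, Lrrc56 and Rassf7 had values between -0.21 (Hras) and 0.33 (Lrrc56), and none passed. With the replicate block none of these 20 genes passed either.

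Within the Ifit cluster lie 2 further family genes on the minus strand, both below the filter. Ifit1bl2 was at 0.75, 2.74 and 1.07 FPKM untreated and at 0.27, 0.26 and 0.23 FPKM after ET-1, so its groups did not overlap. Its gene begins 146 bases from the start of Ifit1 on the opposite strand, and the Ifit1bl2 window there holds the ISRE matches of Ifit1 read in the other direction. Of the windows of 50 bases of Ifit1, 7.06% also occur in Ifit1bl2. Ifit1 was far more abundant, so shared reads could make up any part of the Ifit1bl2 value, and its group difference is uncertain. Ifit1bl1 was at 0.29, 0.50 and 0.30 FPKM untreated and 0.54, 0.57 and 0.06 FPKM after ET-1, with overlap, although both of its windows hold an ISRE match. Of the other IFITM genes, Ifitm5, Ifitm7 and Ifitm10 were at 0.08 to 0.83 FPKM and Ifitm6 was listed at 0 in all 6 libraries.

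**Figure D4:**
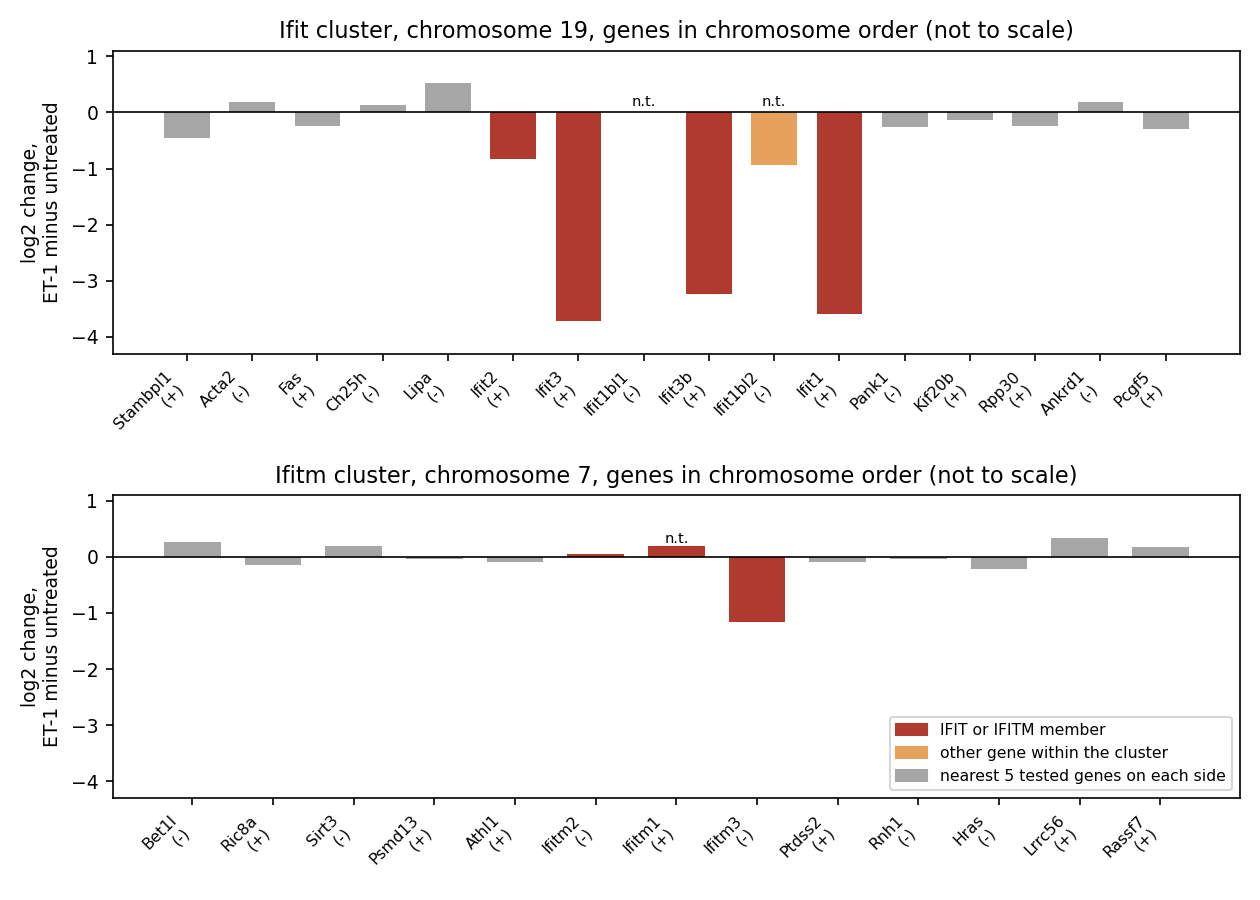
Difference of log2(FPKM + 1), ET-1 minus untreated group mean, for the genes of the Ifit cluster (top) and the Ifitm cluster (bottom) and their nearest 5 tested neighbours on each side, in chromosome order and not to scale; the sign under a name is the strand and n.t. marks genes below the filter. Ifit3, Ifit3b and Ifit1 lie between -3.72 and -3.23, while no neighbour lies below -0.46.

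The tested genes with the most similar profile over the 6 libraries were searched for each member, by the root mean square difference of log2(FPKM + 1) after each profile was centred on its mean. All libraries and both groups enter this measure. Profiles were not scaled, so a flat profile gives small differences, which do not compare between members. The root mean square of the member's own centred profile was 1.87 for Ifit1, 2.01 for Ifit3 and 1.78 for Ifit3b. It was 0.56 for Ifit2, 0.75 for Ifitm3, 0.26 for Ifitm1 and 0.32 for Ifitm2. Nearest to Ifit1 were Iigp1 (0.25), a GTPase induced by interferon, Usp18 (0.30), which removes Isg15 from proteins, and Ifit3b (0.37). Nearest to Ifit3 were Ifit3b (0.34), Ifi44 (0.37) and Ifit1 (0.44). Ifit3b was nearest to Tgtp2 (0.29), Iigp1 (0.31) and Tgtp1 (0.32), GTPases of the same class as Iigp1. Tgtp1 and Tgtp2 are close copies of each other, so their separate levels are uncertain.

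Nearest to Ifit2 were Parp11 (0.07), H2-L (0.14) and Tmem106a (0.15). Profiles were not scaled, so the smaller Ifit2 profile could not lie near those of the other IFIT members, whatever its shape. Parp11, an ADP-ribosyltransferase, was at 4.90, 10.8 and 6.41 FPKM untreated and at 3.35, 3.98 and 2.85 FPKM after ET-1, in the same order of libraries as Ifit2 in both groups. Ifitm3 was nearest to Bst2 (0.17), the tetherin that holds virus particles at the cell surface, Psmb8 (0.19), a subunit of the immunoproteasome, and Slfn2 (0.22). Bst2 was at 761, 1221 and 832 FPKM untreated and at 705, 287 and 311 FPKM after ET-1, so ET-1 library 1 also stood above the other 2 for Bst2. Plin2, Gys1 and Pstpip1 were nearest to Ifitm1 (0.06 to 0.08) and Fam64a, Zbtb12 and Irf8 to Ifitm2 (0.07 each).

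Other genes induced by interferon were lower in the ET-1 libraries along with the IFIT members. Of 29 tested members of a list of 30 interferon-induced effectors, 20 were called lower and none higher in limma over all genes. Among all tested genes 1.89% were called lower. Their median log2 difference was -1.92, against -0.03 over all tested genes. The log2 differences went from -3.33 ± 0.47 for Ifi44 to -0.64 ± 0.44 for the GTPase Gbp2 (SE), and every untreated library lay above every ET-1 library in 28 of the 29, against 17.6% of all tested genes. The mean Ifi44 level was 62.0 ± 40.3 FPKM untreated and 4.80 ± 2.45 FPKM after ET-1 (SD, n = 3 each, adjusted p = 0.0241 in limma). Rtp4, a chaperone induced by interferon, had 70.3 ± 16.0 FPKM untreated and 6.53 ± 2.39 FPKM after ET-1 (SD, n = 3 each, adjusted p = 0.00837 in limma). Untreated library 2 was the highest untreated library in all 29 effectors. The list was written with earlier results of these data known, so its count is not independent evidence. The count of 20 dropped to 7 and 3 without ET-1 libraries 1 and 2, to 11 with no filter, and to 0 without untreated library 3 or with untreated libraries 1 and 3 averaged (28 at an unadjusted p under 0.05 in both).

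Interferon genes were at low levels where they could be read. Of 10 interferon ligand genes looked for, 6 had values and the others were not analysed here. None of the 6 passed the filter, and their summed level was at most 0.31 FPKM in any library. Ifnb1 was at 0.07, 0 and 0.07 FPKM untreated and at 0, 0 and 0.22 FPKM after ET-1. Untreated library 2, with the highest IFIT levels, had all 6 listed at 0.

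Of 11 tested receptor and JAK-STAT genes, Stat2 and Irf9 were called lower and none higher. Among all tested genes the share called lower was 1.89%. Irf9 was at 37.3, 42.0 and 36.6 FPKM untreated and at 11.5, 10.9 and 12.7 FPKM after ET-1, with little spread in either group (limma adjusted p = 0.00664 over all genes). Stat2 was at 31.4, 51.4 and 34.0 FPKM untreated and at 10.7, 8.34 and 8.23 FPKM after ET-1 (limma adjusted p = 0.0146). The receptor genes Ifnar1 and Ifnar2 had log2 differences of 0.30 ± 0.11 and 0.13 ± 0.09 (SE) and did not pass. The Stat2 and Irf9 calls were lost when untreated library 3 was left out or averaged with library 1, where 3 of the 11 genes had an unadjusted p under 0.05 in each. None of 6 interferon regulatory factors passed (1 at an unadjusted p under 0.05). The lowest log2 difference was that of Irf7 (-2.33 ± 0.47, SE), which was called with the replicate block, at a pseudocount of 0.1 and without ET-1 library 1, and the highest that of Irf5 (0.19 ± 0.17).

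Of 11 tested genes of nucleic acid sensing, Ddx58, Ifih1, Dhx58 and Myd88 were called lower and none higher, against 1.89% of all tested genes called lower. The first 3 encode the cytoplasmic RNA sensors RIG-I, MDA5 and LGP2. Ddx58 was at 33.2 ± 8.3 and 8.44 ± 1.68 FPKM (SD, n = 3 each; adjusted p = 0.0167 in limma). Tlr3, a sensor of double-stranded RNA, was called lower only with the replicate block. Myd88 was lost when untreated library 1 or 2 was left out and with quantile normalization, only Ddx58 and Dhx58 were called without ET-1 library 1 or 2 and with no filter, and 0 were called without untreated library 3 or with untreated libraries 1 and 3 averaged (5 at an unadjusted p under 0.05 in both). Among 5 inhibitors of the response, Usp18 was called lower and Socs3 only with the replicate block. Ptpn6 had the highest log2 difference (0.82 ± 0.41, SE) without passing. The Usp18 call was lost under the same alternatives that left 0 sensing genes. None of 3 proteins that act on IFITM proteins passed (1 at an unadjusted p under 0.05). Zdhhc20, which attaches palmitate to IFITM3, was at 25.3 ± 8.3 and 26.2 ± 5.1 FPKM, Nedd4, a ubiquitin ligase for IFITM3, at 135.4 ± 5.2 and 154.4 ± 17.0 FPKM, and Zmpste24, a protease that works with IFITM proteins, at 39.7 ± 5.8 and 28.7 ± 4.5 FPKM (n = 3 each). Zmpste24 was called lower with the replicate block.

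**Figure D5:**
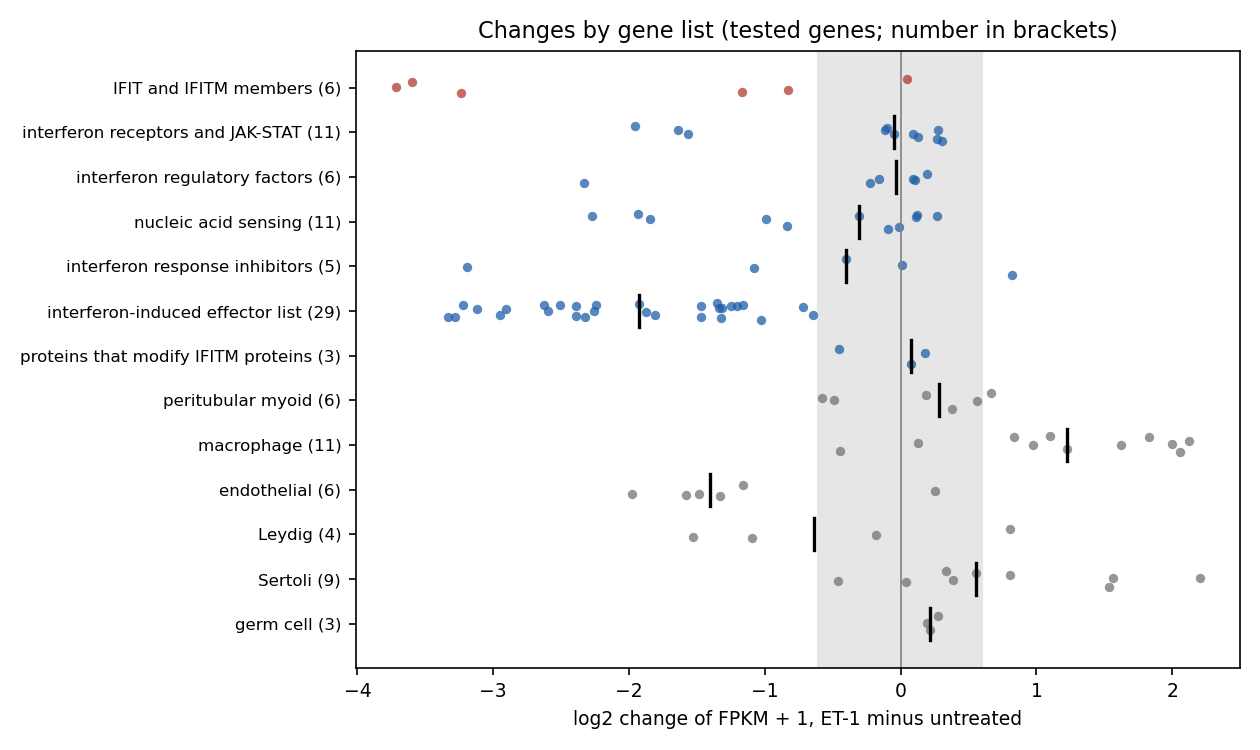
Difference of log2(FPKM + 1), ET-1 minus untreated, of each tested gene by list: members (red), pathway lists (blue) and marker lists of cell types (grey); black bars are list medians, not drawn for the members, and the shaded band holds the middle 90% of all tested genes. All 29 effectors lie below 0, the receptors and regulatory factors lie mostly within the band, and macrophage and endothelial markers lie mostly to opposite sides.

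The summed macrophage and endothelial markers did not overlap between the groups. The Sertoli sum did not overlap either, but most of it was Clu, and the groups overlapped in most tested Sertoli markers. The 6 peritubular myoid markers summed to 3088 to 3561 FPKM untreated and 3532 to 5026 FPKM after ET-1, with overlap. The summed level of 13 macrophage markers was 123 to 200 FPKM untreated and 311 to 735 FPKM after ET-1, with log2 differences above 0 in 10 of the 11 tested. Of the 11, 1 was called higher, against 183 of all 11664 genes. With the replicate block 6 were called higher and 1 lower, against 497 and 605 of all genes. In ET-1 library 1, which had the highest Ifitm3 level of its group, the macrophage sum was highest (735 FPKM). The summed level of 10 endothelial markers was 61.3 to 97.4 FPKM untreated and 27.2 to 47.8 FPKM after ET-1. Of the 6 tested, 4 were called lower, against 1.89% of all tested genes. The log2 differences of the 6 went from -1.98 (Esam) to 0.25 (Cdh5). Leydig markers summed to 2335 to 4960 FPKM untreated and 828 to 2422 FPKM after ET-1. Most of that sum was Insl3, whose groups overlapped, while Star, which moves cholesterol into mitochondria, was at 62.0 to 79.7 FPKM untreated and 103.7 to 155.1 FPKM after ET-1. Sertoli markers summed to 1044 to 2566 and 3061 to 6696 FPKM, with log2 differences above 0 in 8 of the 9 tested Sertoli markers. Most of that sum was Clu, at 840 to 1879 FPKM untreated and 2579 to 5624 FPKM after ET-1. Every ET-1 library lay above every untreated library in Clu, Aard and Inha, 3 of the 9, a share not counted over all genes. The groups overlapped in the other tested Sertoli markers. Only Aard was called higher, against 183 of all 11664 genes. Untreated library 2, which had the highest IFIT levels, had the lowest endothelial and Leydig sums and the highest macrophage (199.9 FPKM) and Sertoli sums of the untreated libraries. Germ cell markers summed to 7.30 to 17.7 FPKM and lymphocyte markers to 0.27 to 0.73 FPKM over all libraries, with Ms4a1 and Nkg7 listed at 0 throughout. No macrophage, endothelial, Leydig or Sertoli marker was at 0 in all libraries. The part of these cells in the IFIT and IFITM levels was not tested.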

How the data were processed

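RNA was measured in 3 untreated and 3 ET-1 libraries of primary mouse peritubular myoid cells, grouped by their titles. The build was mm10, per the submitters' processing notes, which name RSEM 1.2.12, Bowtie2 2.2.5 and HISAT2 2.0.4 without saying what each did. The authors deposited 1 table with a column of FPKM values for each library, rounded to 2 decimals, per the file headers. Of 22135 rows, 19285 had values. Read counts were not used, and depth was estimated from genes of 300 to 1200 bases, whose low values are spaced by what 1 fragment is worth. A level near 1 FPKM rests on few fragments.

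The 11664 genes that reached 1 FPKM in 3 or more libraries were fitted as log2(FPKM + 1), using limma 3.58.1 under R 4.3.3 (trended empirical Bayes, group as the only term, two-sided, Benjamini-Hochberg adjusted p under 0.05 over all genes). Differences on this scale understate changes at low levels. For 3 against 3 libraries the smallest exact permutation p is 0.1. The step was tested on simulated data. Same-numbered libraries deviated together (correlations across genes of 0.228, 0.523 and 0.202), so the number was also used as a block. Libraries 1 and 3 deviated together across numbers as well (0.250 and 0.271), and the labels do not say what the number stands for. Alternatives were pseudocounts of 0.1 and 5, no filter, quantile normalization, equal medians, the block, each library left out, and untreated libraries 1 and 3 averaged.

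The members, lists and alternatives were chosen with earlier results of these data known. Named genes are the 7 members, the 3 tested genes nearest to each and the 5 tested neighbours on each side of each cluster. The extremes of the pathway lists with tested genes are also named, except the highest in nucleic acid sensing. Among the marker lists both extremes are named only for the endothelial and Leydig lists. Irf9, Rtp4, Ddx58, Ifnb1, Acta2, Insl3, Cyp11a1, Cyp17a1, Lhcgr, Clu, Aard, Inha and other called genes were named after their values were seen. Promoters are from RefSeq (GRCm38.p6), found for all 7 members by symbol, and transcripts from GENCODE M21 on the same build as mm10, aligned with Biopython 1.88. Coding sequences were compared in place of the planned proteins.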

Additional observations from a re-analysis of the deposited data

How the results depend on the processing

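The number of genes called over the whole table was 404. It was 193 with no filter, 1102 with the replicate block and 0 with untreated libraries 1 and 3 averaged (1766 with an unadjusted p below 0.05 in limma). When 1 library was left out, the count lay between 0 (untreated library 3 left out, 1653 genes with an unadjusted p below 0.05) and 797 (ET-1 library 3 left out). It was 79 when untreated library 1 was left out, 75 when ET-1 library 1 was, and 105 when ET-1 library 2 was. The effector count of 20 became 11 with no filter and 0 with the averaged pair, and ranged from 0 to 20 when 1 library was left out; the effectors' median log2 difference of -1.92 was -1.39 at a pseudocount of 5. The count of 3 called members became 1 with no filter and 0 with the averaged pair, and ranged from 0 to 3 when 1 library was left out. At a pseudocount of 5 it was 2, without Ifit3b. The replicate block left it at 3 and gave 24 effectors. Over 13 alternatives, the log2 difference of Ifit1 ranged from -3.96 to -2.92, of Ifit2 from -1.11 to -0.49, of Ifit3 from -4.33 to -3.03, of Ifit3b from -3.78 to -2.22 and of Ifitm3 from -1.63 to -0.84, all below 0. Ifitm2 ranged from -0.22 to 0.19 and had no fixed direction. Apart from fewer libraries or more genes tested, the cause of these shifts was not tested. Depth limits Ifitm1 most, at 10 to 24 fragments per library.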
